A study of Mus musculus with 2 samples.

Results

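The 41 genes described here build and organise the contacts between epithelial cells. They were listed by name as cadherins, catenins and nectins of the adherens junction (16 genes), tight junction genes (10), desmosome genes (5) and genes of apical-basal polarity (10). All 41 had a probe, and together they held 60 probes of the 27219 that could be named, which covered 20651 genes. Membership used no threshold on measured values.

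RNA came from the lens of newborn mice (postnatal day 0) on a mixed C57BL/6 background and was hybridised in 1 colour to Agilent SurePrint G3 arrays. One array held control lens, given the genotype wild-type and called a litter mate in the design text. The other array held lens given the genotype Foxp1 KO, a lens-specific deletion of the forkhead repressor Foxp1. Both samples carry the same treatment entry, a floxed Foxp1 allele on both chromosomes with the Cre driver Pax6-L-Cre, so whether the control animals carried the floxed allele or Cre is not settled by the labels. Neither the number of animals per array nor the reach of the Cre driver outside the lens is given. Both samples shared a slide, each in its own position, and an effect of that position and one of genotype cannot be told apart. The genotypes had 1 array each, so nothing below has a replicate check. A difference is the log2 of the knockout signal minus that of the control signal, each relative to the 75th percentile of its array.

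Cadherins are transmembrane proteins that bind the same cadherin on the neighbouring cell, and catenins tie their tails to actin. Lens epithelial cells are known for E-cadherin together with N-cadherin, whereas fibre cells rely on N-cadherin along their long lateral membranes. Tight junctions seal the space between cells with claudins, desmosomes anchor intermediate filaments, and the Par, Crumbs and Scribble complexes keep apical and basal surfaces apart.

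The material read as lens on both arrays. All 13 fibre markers were well above background, with summed signals of 2360480 in control lens and 2331050 in knockout lens, as were all 7 epithelium markers, at 112386 and 91104, of which 5 of 7 lay below 0. Foxp1, the deleted gene, read 3460.2, 1677 and 97.5 with its probes in control lens and 969.9, 464 and 38.4 in knockout lens. Its mean difference was -1.66 ± 0.29 (SD over its 3 probes). Dim features read lower on the knockout array in general. Of all spots 67.5% were well above background in control lens and 56.9% in knockout lens, and an added spike-in RNA with signals of 86.7 and 37.8 differed by -1.16, whereas the 7 brighter spike-ins lay between -0.23 and 0.0034. The dimmest spike-ins, at 19.9 and 55.2 in control lens, were not above background in knockout lens. Among genes measured on both arrays with a mean signal under 100, 19.7% were at least 2-fold lower and 1.19% at least 2-fold higher. For genes between 100 and 1000 these shares were 1.47% and 1.27%, and for genes at 1000 or more they were 0.313% and 0.56%. The SD of repeated spots was 0.27 in the dim class, 0.13 in the middle class and 0.11 in the bright class, which covers spot noise only.

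Of the 41 genes, 31 were measured on both arrays, 4 were above background on the control array only, 0 on the knockout array only and 6 on neither. Over all named genes these shares were 69%, 8.76%, 2.29% and 19.8%. With knockout RNA none of the 31 members was higher by 2-fold or more, against 1.02% of all 14250 measured genes. Claudins Cldn1 and Cldn4 and the desmosomal cadherin Dsc2 were at least 2-fold lower (3 of 31), against 5.85% of all measured genes. All 3 were in the dim class, which held 5 of the measured members. The median difference of the 31 was -0.044, with 15 above and 16 below 0, and that of all measured genes was 0.006. The 13 bright members had a median of 0.14, with 9 above and 4 below 0, against a median of 0.085 over all 4468 bright genes. The 13 of middle signal had a median of -0.07, against 0.02 over 6073 genes. Over other ways of scaling the arrays, 9 members stayed above 0, 11 stayed below 0 and 11 had a sign that depended on the method. Those methods were quantile normalization, a 75th percentile over measured probes only, loess and normexp. Scaling by array medians lifted the median of all genes by 1.08 and is left out of that count; the percentile over measured probes moved it by -0.13.

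**Figure D1:**
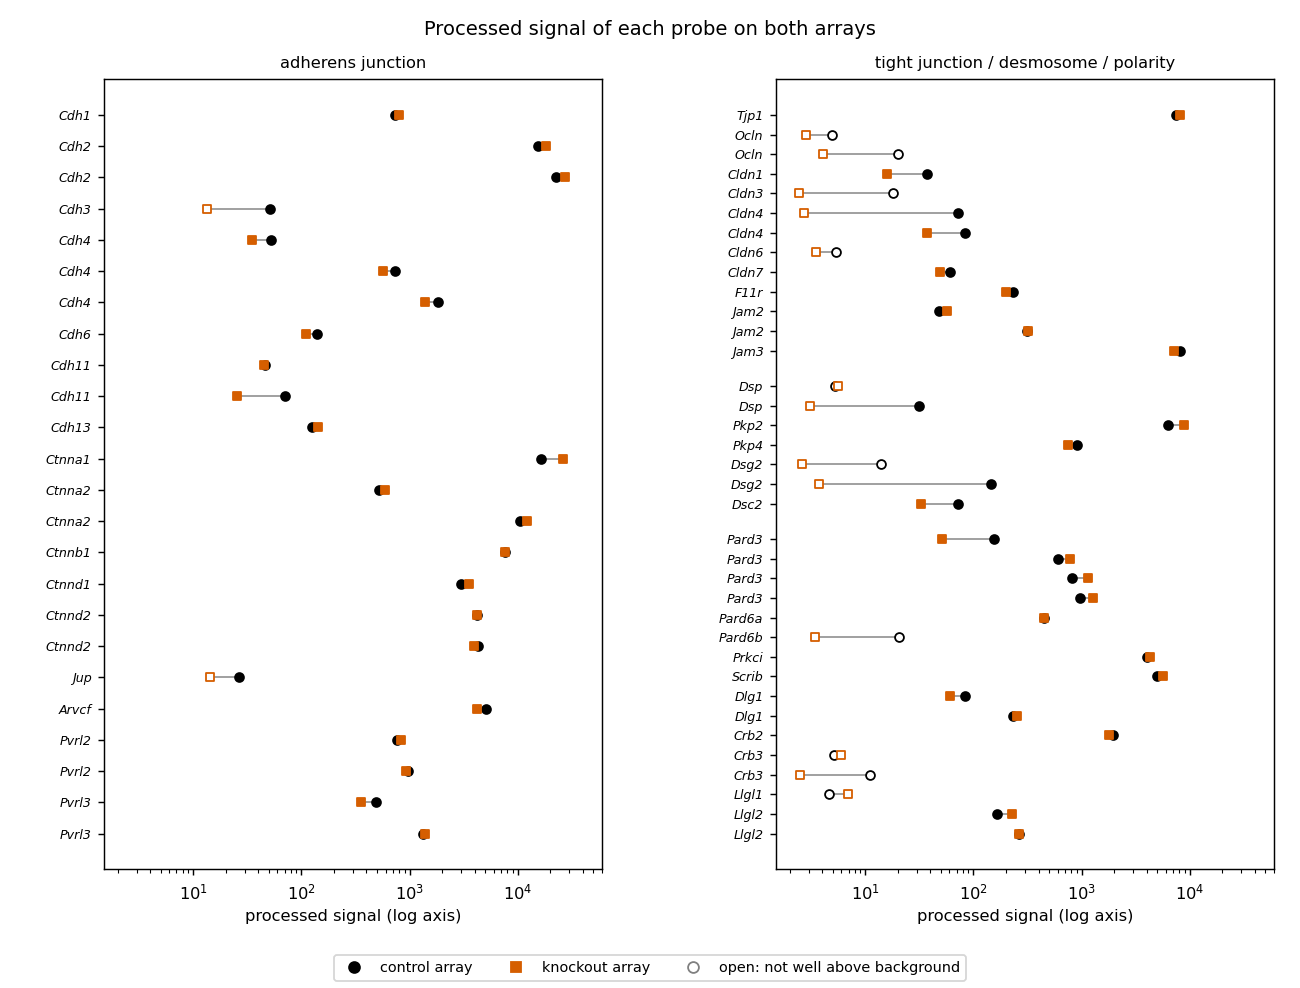
Processed signal (log axis) of all 60 probes, with the control array as black circles and the knockout array as orange squares, and open symbols where the spot was not well above background. The bright probes of Cdh2, Ctnna1 and Pkp2 lie to the right on the knockout array, and the long leftward lines of Cldn4, Dsg2 and Dsp end in open squares.

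Of the genes that form the N-cadherin complex, Ctnna1 read farthest above 0 and Ctnnb1 was level. Cdh2, which encodes N-cadherin, had 2 probes that read 15455 and 22659 in control lens and 18447 and 27191 in knockout lens. Their differences were 0.27 and 0.28, so the probes matched each other closely, and 15.9% of bright genes were as high as the gene or higher. Ctnna1, alpha-E-catenin, links the cadherin complex to actin. Its single spot read 16521 in control lens and 26099.7 in knockout lens, 1.59-fold higher, a difference of 0.67. This was the highest difference among the members, and 80 of the 4468 bright genes (1.79%) were as high or higher. The median pixel of the same spot gave a smaller gap, 12693 against 16002.5, or 0.39 after scaling. Ctnna1 stayed above 0 under the 5 processing methods, between 0.37 and 0.67.

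Ctnna2, the neural alpha-catenin, read 518 and 10411 with its 2 probes in control lens and 597 and 12112 in knockout lens, differences of 0.22 and 0.23, with 21.3% of bright genes as high or higher. Ctnnd1, or p120-catenin, which holds cadherins at the membrane, went from 2989 to 3575, a difference of 0.27, and 715 of the 4468 bright genes were as high or higher. Beta-catenin, Ctnnb1, both a junction subunit and the effector of Wnt signalling, did not follow. It read 7594 and 7659, a difference of 0.03 ± 0.05 (SD over 2 spots), and it was below 0 under 3 of the 5 methods. Thus Cdh2, Ctnna1, Ctnna2 and Ctnnd1 were above 0 under all 5 methods and Ctnnb1 was not, while none of these genes came near 2-fold.

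E-cadherin was nearly equal on both arrays. The Cdh1 probe was printed 10 times and read on average 742 and 799.7, a difference of 0.12 ± 0.16 (SD over 10 spots). The sign turned to -0.01 when the percentile was taken over measured probes. The other p120 relatives went the opposite way or stayed level. Arvcf went from 5054 to 4205, a difference of -0.25, and 211 bright genes (4.72%) were as low or lower. Ctnnd2, a delta-catenin of neurons, read 4164 and 4305 in control lens and 4209 and 3931 in knockout lens, differences of 0.03 and -0.12, and the median pixels of the first spot gave -0.22.

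Retinal cadherin Cdh4 read lower with all 3 probes. The probes stood at 52.3, 737 and 1819 in control lens and at 35.3, 573 and 1394 in knockout lens, which gave differences of -0.55, -0.35 and -0.37. Cdh4 stayed below 0 under the 5 methods, between -0.55 and -0.18. Cdh6, a cadherin of developing kidney and nervous tissue, went from 140.1 to 111, a difference of -0.32. Cdh13, an anchored cadherin without a cytoplasmic tail, went from 126 to 142, a difference of 0.19 that turned to -0.06 after normexp correction and to -0.11 with median pixels. Cdh11, a cadherin of mesenchyme, was dim, and its probes differed widely. One read 46.0 and 45.3, a difference of -0.01, and the other 71.1 and 25.2, a difference of -1.48, and their mean turned from -0.75 to 0.15 under quantile normalization. Median pixels of the same spots gave -0.54 and -1.15, which lie closer together. P-cadherin, Cdh3, was well above background on the control array only, at 50.9 against 13.5. Its bound, as defined under processing, was 3.75-fold lower, and its difference was -0.67 both after normexp correction and under quantile normalization. Plakoglobin, Jup, a catenin shared with desmosomes, was also above background on the control array only, at 26.3 against 14.4. It had a bound of 1.81-fold lower, and its difference was -0.17 after normexp correction and 0.62 under quantile normalization. For both genes the control signal lies between those of the dimmest spike-ins. These spike-ins differed by -3.10 (55.2 against 6.87) and -2.30 (19.9 against 4.22).

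Nectins are immunoglobulin-like adhesion proteins that cooperate with cadherins. Pvrl2, nectin-2, read 773 and 969 in control lens and 832 and 922 in knockout lens, differences of 0.12 and -0.06. Pvrl3, nectin-3, read 486 and 1346 against 355 and 1392, differences of -0.44 and 0.06. The sign of the brighter Pvrl3 probe turned to -0.03 after loess and -0.06 under quantile normalization, and that of the first Pvrl2 probe to -0.13 after normexp correction. Over the adherens group 14 of 16 genes were measured on both arrays, 8 above and 6 below 0. The middle value was 0.029, or -0.048 after loess. In either direction 0 passed 2-fold, against 1.02% higher and 5.85% lower over all measured genes.

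**Figure D2:**
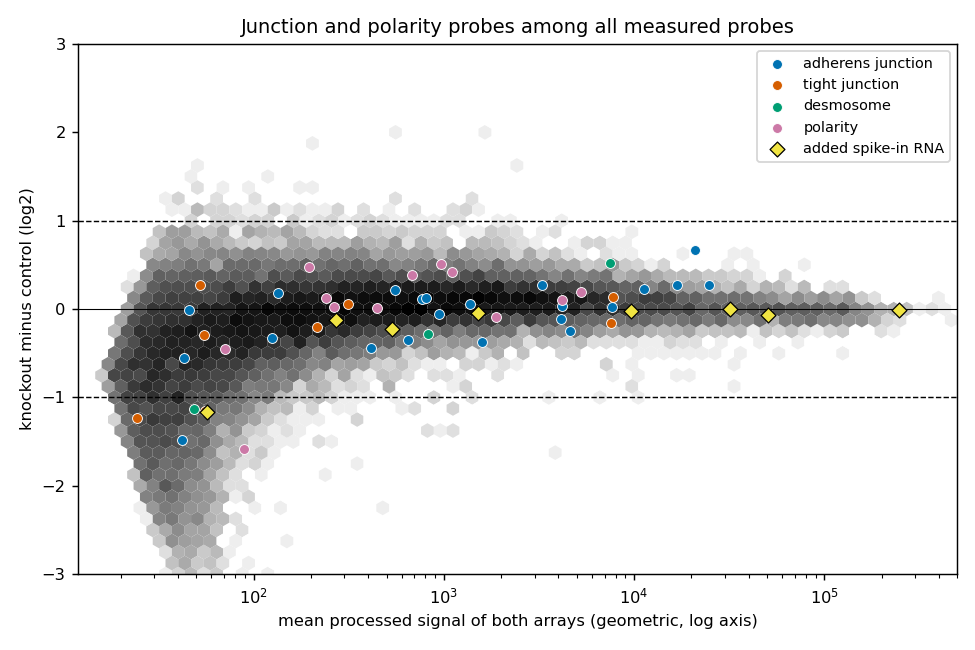
Knockout minus control difference (log2) against the mean processed signal (log axis), with all measured probes as grey density, the members' probes coloured by group and spike-in RNAs as yellow diamonds. Grey density, members and the dimmest plotted spike-in bend below 0 at signals under 100, and among the bright probes Ctnna1 at 0.67 and Pkp2 at 0.53 sit highest.

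The tight junction genes comprised a bright pair, a few genes of middle signal and the dim claudins. Tjp1, the scaffold ZO-1, read 7375 and 8056, a difference of 0.14 that stayed above 0 under the 5 methods, with 0.02 as the lowest. Jam3, junctional adhesion molecule C, read 8067 and 7152, a difference of -0.16. The related gene Jam2 had differences of 0.06 and 0.27 with signals of 309 and 48.1 in control lens and 319 and 57.4 in knockout lens. F11r, junctional adhesion molecule A, went from 233 to 201, a difference of -0.20. These junctional adhesion molecules and Tjp1 lay between -0.20 and 0.16 as genes with the 75th percentile scaling. Other methods gave a wider range, with Jam2 at 0.56 under quantile normalization and F11r at -0.35 after normexp correction.

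Claudins form the seal itself, and those among the 41 genes were dim. Cldn1 read 37.4 and 15.8, a difference of -1.23, or 2.35-fold lower. Cldn4 was read by a probe at 83.4 and 37.0, a difference of -1.16. Another probe read 71.5 in control lens and 2.74, not above background, in knockout lens, a bound of 5.84-fold lower. That second probe differed by -1.08 after normexp correction and by -3.90 under quantile normalization. Cldn7 read 60.9 and 49.1, a difference of -0.30. In the same dim class 13.2% of genes were as low as Cldn1 or lower, and 556 of 3709 were as low as Cldn4. The Cldn1 difference was -0.52 after loess, -0.49 after normexp correction and 0.12 under quantile normalization. That of the Cldn4 probe measured on both arrays was -0.78, -0.61 and -0.49. Neither passed 2-fold under those 3 methods. Cldn3 and Cldn6 and both probes of occludin, Ocln, were above background on neither array. Their control signals were 17.9, 5.33, 4.92 and 19.9. For the group as a whole 7 of 10 genes were measured. Of these 2 were at least 2-fold lower and 0 higher, against 5.85% and 1.02% of all measured genes. The group median was -0.20, or -0.17 after loess and 0.054 under quantile normalization.

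Pkp2, plakophilin-2, a desmosomal plaque protein, read 6241 and 8897, 1.44-fold higher, a difference of 0.53. It stayed between 0.40 and 0.56 under the 5 methods, the median pixels of its spot gave 0.58, and 170 bright genes (3.80%) were as high or higher. Pkp4, a plakophilin relative found at adherens junctions too, went the other way, from 913 to 741, a difference of -0.29. Dsc2, desmocollin-2, went from 72.03 to 32.5, a difference of -1.13, which became -0.70 after loess, -0.48 after normexp correction and -0.35 under quantile normalization. In the dim class 15.7% of genes were as low as Dsc2 or lower. Desmoglein-2, Dsg2, read 144 in control lens and 3.73, not above background, in knockout lens with its brighter probe, a bound of 11.8-fold lower. That probe differed by -1.50 after normexp correction and by -4.32 under quantile normalization. The median pixel of that spot was 160 with control RNA, over a local background of 32, and 41 with knockout RNA, over 30. Its other probe read 14.0 and 2.59 and was above background on neither array.

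Desmoplakin, Dsp, which ties desmosomes to intermediate filaments, was read by a probe printed 10 times that was above background on neither array, at 5.29 and 5.62. A second probe read 31.2 in control lens and 3.08 in knockout lens, a bound of 2.55-fold lower. Its difference was -0.61 after normexp correction and -1.97 under quantile normalization. The better-replicated probe thus gave no measurable level, and the pair did not match. Of the 5 desmosome genes 3 were measured on both arrays, with a median of -0.29. At least 2-fold higher were 0 and lower was 1, against 1.02% and 5.85% of all measured genes.

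Scrib, the Scribble scaffold, read 4962 and 5617, a difference of 0.19, and Prkci, the atypical protein kinase C of the Par complex, read 4044 and 4312, a difference of 0.11. Crb2, a Crumbs protein of the apical membrane, read 1941 and 1805, a difference of -0.09. Pard6a, a Par complex adaptor, was level at 448 and 446, a difference of 0.01. Dlg1, a partner of Scribble, had probes at 83.2 and 231 in control lens and 60.4 and 250.4 in knockout lens, differences of -0.45 and 0.13. Llgl2, an antagonist of atypical protein kinase C, had probes at 167 and 263 in control lens and 229 and 265 in knockout lens, differences of 0.47 and 0.03. Pard6b, Crb3 and Llgl1 were above background on neither array. As means over their probes, all 7 measured polarity genes lay between -0.16 and 0.25, with a median of 0.0085. None passed 2-fold (0 of 7), against 1.02% higher and 5.85% lower over all measured genes.

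Pard3, the Par complex scaffold, held the largest gap between probes of a gene. Its 3 brighter probes read 599, 812 and 965 in control lens and 776, 1145 and 1273 in knockout lens, with differences of 0.39, 0.51 and 0.41. The probe annotated to the transcript NM_001013581 read 154 and 50.9, a difference of -1.58, the lowest of any measured member probe. That difference was -1.37 after loess and -0.93 after normexp correction. The 3 brighter probes stayed above 0 under each of these methods, between 0.31 and 0.59. As a mean over 4 probes the gene stood at -0.07 ± 1.01 (SD over probes), a value that hides the split. Which exons each probe covers is not given in the sources used here. The lowest probe is in the dim class, in which 19.7% of measured genes were at least 2-fold lower. Whether its difference goes with the transcript or with the dim signal was not tested.

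Across the 11 members with several measured probes, 6 had all probes on the same side of 0 and 5 did not, with the 75th percentile scaling. The median gap between the highest and the lowest probe was 0.21. Cdh2 and Ctnna2 had gaps of 0.01, and Cdh11 and Pard3 had gaps of 1.48 and 2.09. The Cdh11 gap was smaller with median pixels.

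**Figure D3:**
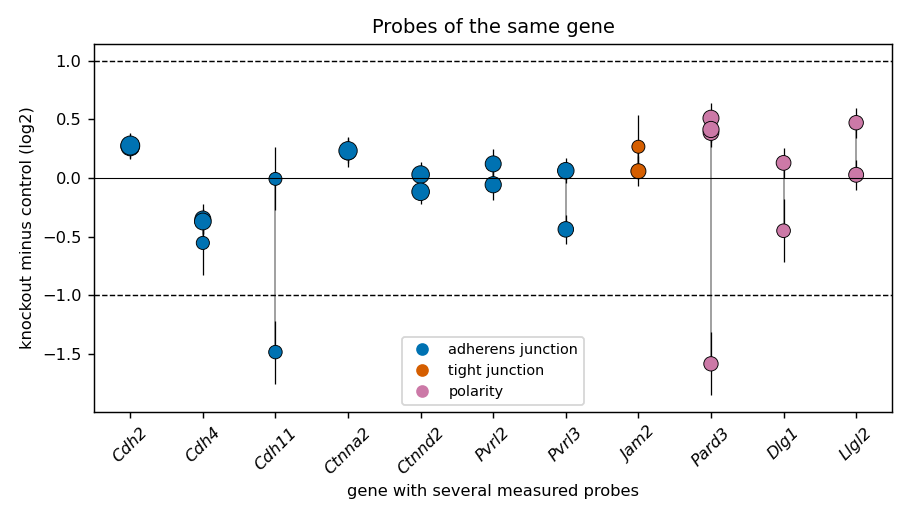
Knockout minus control difference (log2) of each measured probe for the 11 genes with several, with larger dots for brighter probes and bars of 1 SD of repeated spots in the probe's signal class. The dots of Cdh2 and Ctnna2 overlap, whereas a single dim probe of Pard3 and of Cdh11 lies near -1.5, far from the others.

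Promoter sequence from RefSeq tables of GRCm38.p6 was searched for 27 of the 41 genes, in 40 windows that run from 250 bases before to 50 after a start. Member windows of a single chromosome were left out by choice. The 14 genes without a searched window include Cdh2, Ctnna1, Pkp2, Dsg2 and Dsc2. Forkhead factors bind the core TGTTTA, and the E-box CAGGTG is the letter string bound by Snail and Zeb repressors of junction genes. Both were searched on both strands. The core TGTTTA occurred in 4 of 40 member windows (10%), those of Ctnnd1, Dlg1, Jup and Pard3, against 13.4% of all 32851 windows. The longer form TGTTTAC, which contains the core, occurred in 0 of 40, against 3.65%. The E-box occurred in 18 of 40 (45%), against 20.2% of all windows. By group it was held by 6 of 8 tight junction genes, 3 of 9 adherens genes, 2 of 2 desmosome genes (Dsp and Pkp4) and 5 of 8 polarity genes. The member windows had a median GC content of 62.7%, against 52.7% over all windows, and the shares were not compared at equal base composition. A match is a run of letters, not a binding site.

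Windows are shown for the pair of claudins that read at least 2-fold lower and for 2 catenins that read higher, with matches to either search in capitals. Cldn1 lies on the minus strand at chr16:26371790-26372089 and holds no match, and Cldn4 on the minus strand at chr5:134946885-134947184 has E-boxes that begin at -14 and 12 from the start. Ctnna2 is on the minus strand at chr6:77979618-77979917 with an E-box at -182. Ctnnd1, minus strand at chr2:84658928-84659227, has the forkhead core, in reverse complement, at -149. Another Ctnnd1 window, at chr2:84650691-84650990, holds no match and is not shown.
Cldn1: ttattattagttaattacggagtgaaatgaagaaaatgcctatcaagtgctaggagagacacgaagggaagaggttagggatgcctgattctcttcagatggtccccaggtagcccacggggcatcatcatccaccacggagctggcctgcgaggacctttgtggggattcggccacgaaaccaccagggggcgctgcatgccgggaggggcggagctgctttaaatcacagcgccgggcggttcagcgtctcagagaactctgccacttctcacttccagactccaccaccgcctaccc
Cldn4: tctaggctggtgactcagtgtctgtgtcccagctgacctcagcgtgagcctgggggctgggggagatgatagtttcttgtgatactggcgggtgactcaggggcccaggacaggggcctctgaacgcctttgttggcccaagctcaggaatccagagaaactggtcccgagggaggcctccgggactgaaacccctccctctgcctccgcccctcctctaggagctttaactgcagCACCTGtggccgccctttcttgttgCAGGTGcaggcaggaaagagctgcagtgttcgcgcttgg
Ctnna2: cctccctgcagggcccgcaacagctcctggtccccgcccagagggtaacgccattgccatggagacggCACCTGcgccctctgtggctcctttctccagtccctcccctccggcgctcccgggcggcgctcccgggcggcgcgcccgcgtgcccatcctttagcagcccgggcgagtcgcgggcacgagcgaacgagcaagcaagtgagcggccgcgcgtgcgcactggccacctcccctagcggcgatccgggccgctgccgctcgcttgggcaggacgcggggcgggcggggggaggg
Ctnnd1: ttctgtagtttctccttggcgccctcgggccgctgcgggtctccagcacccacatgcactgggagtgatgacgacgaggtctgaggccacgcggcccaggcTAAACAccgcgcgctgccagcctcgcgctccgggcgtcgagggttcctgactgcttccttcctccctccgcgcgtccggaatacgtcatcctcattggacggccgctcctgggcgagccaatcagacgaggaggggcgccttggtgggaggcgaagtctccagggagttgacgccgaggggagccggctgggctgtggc

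Junction and polarity genes outside the 41 were listed as well, 84 in all, of which 62 were measured on both arrays. None was at least 2-fold higher (0 of 62), against 1.02% of all measured genes, and 1 was at least 2-fold lower, against 5.85%. That gene was the dim atypical cadherin Cdh23, named after its value was seen, at 59.0 and 20.0, a difference of -1.55. The median of the 62 was -0.042, with 29 above and 33 below 0. The 22 at or above the median signal of all measured genes had a median of 0.15, with 15 above 0 and 0 beyond 2-fold.

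Plakophilin-3, Pkp3, was the bright junction gene with the largest difference below 0 in that list. It went from 36432 to 20000.4, a difference of -0.85 that was -0.88 after loess, while periplakin, Ppl, which links desmosomes to filaments, had a difference of 0.48 and Perp one of 0.05 that was -0.04 after loess. Among tight junction scaffolds Magi1 read 0.54 higher, Sympk 0.13 higher and cingulin, Cgn, 0.39 lower, from 618 to 467. Polarity genes included Lin7a at 0.54, Pard6g at 0.44, Amot at 0.37 and Dlg5 at 0.21, and 13 of 18 measured lay above 0. In the adherens list Nectin1 stood at 0.26, Ctnnbip1 at 0.18, which became -0.06 after normexp correction, Ssx2ip at 0.17 and Ctnnal1 at -0.18. Of 13 regulators of cadherin expression 8 were measured and 0 passed 2-fold, against 1.02% higher and 5.85% lower over all measured genes. The bright ones were Ovol2 at 0.23 and Zeb1, an E-cadherin repressor, at -0.13.

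**Figure D4:**
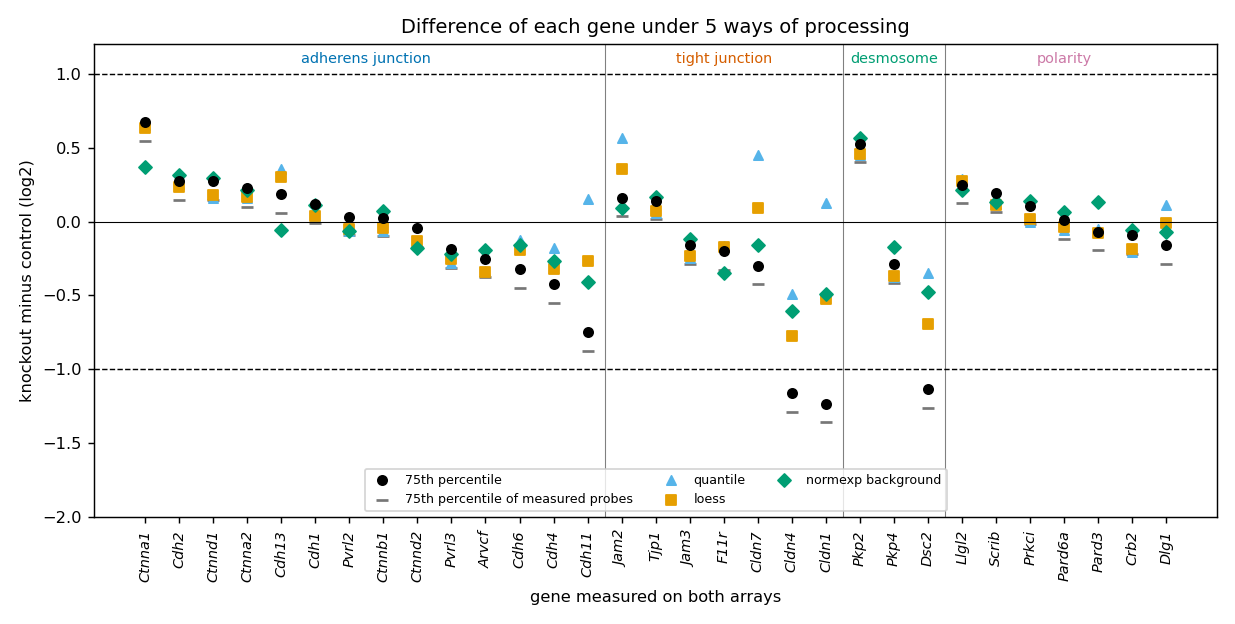
Difference (log2) of the 31 measured members, ordered within each group by the black circles, under 5 ways of processing, with dashed lines at 2-fold. Ctnna1, Cdh2, Ctnnd1, Ctnna2 and Pkp2 keep all symbols above 0, and the symbols of the dim genes Cdh11, Cldn1, Cldn4, Cldn7 and Dsc2 spread most.

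Other cells that a dissected lens can carry express several of these genes. In bulk RNA, fewer cells of a type and less RNA per cell cannot be told apart. Markers of surface epithelium, where Cdh3, Jup, Dsp, Dsc2 and the claudins are also expressed, were above background for 12 of 13 genes in control lens and 9 of 13 in knockout lens. Of the 9 measured on both arrays 6 lay below 0, with a median of -0.17. Their summed signals were 7334.5 and 7336, most of it from Perp and Trp63, and Krt12 was above background on neither array. The dim markers above background with control RNA only were Epcam, at 108 against 18.5, Krt8, at 45.05 against 10.9, and Grhl2, at 23.3 against 9.87. Among those measured, Sfn went from 169 to 89.6, a difference of -0.91, Krt14 differed by -0.96 and Ehf by -0.84. The other keratins were closer to level, with Krt5 at -0.31, Krt15 at -0.17 and Krt18 at -0.11. Krt19 went the other way, from 144 to 178, a difference of 0.32. The brighter Trp63 and Perp read 1587 and 4677 in control lens and 1753 and 4786 in knockout lens. Retina and neuron markers, beside which Cdh4, Ctnna2 and Ctnnd2 are to be read, summed to 5356 and 7545, with 9 of 10 above 0 and a median of 0.40. Mesenchyme markers, relevant to Cdh11, summed to 1157 and 1452, with 2 of 6 measured at least 2-fold higher and 1 lower, and Dcn and Lum were above background on the knockout array only and Twist1 on the control array only. Endothelial markers, relevant to the junctional adhesion molecules, summed to 10237 and 9122, with 7 of 9 below 0, a median of -0.17 and 1 at least 2-fold lower. Pigment epithelium markers summed to 5517 and 4964, with 6 of 6 measured below 0, a median of -0.39 and Rpe65 above background on neither array. These counts use the mean over a gene's probes, and the brightest Mitf probe, at 3120 and 3251, had a difference of 0.07. The part of such cells in the differences above was not tested.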

How the data were processed

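Values are intensities from Agilent Feature Extraction 10.7.3.1, deposited as scanner output, 1 array per sample, with a probe layout annotated to mm9, per the file headers. No scaling between arrays is recorded there. The processed signal is background-subtracted by that software, and the deposited flags mark outlier spots and signals well above background. Control spots and 263 outlier spots were left out. The log2 signal minus the array's 75th percentile (282.6 for control and 279.9 for knockout) was averaged over the spots of a probe. Measured probes are those for which over 50% of spots carried the above-background flag in each sample. A gene was the mean of its measured probes. A probe above background on 1 array got a bound against the higher of its own dim signal and the lowest signal called well above background there (20.6 and 12.1). Such a bound is not a minimum, since Cdh3 at 13.5 and Jup at 14.4 lay above 12.1 in knockout lens without the flag. Probes were named by unversioned RefSeq accession through the GRCm38.p6 table. The mean signal of the dim, middle and bright classes (limits 100 and 1000) is geometric. A difference of 2-fold was used as a size rule. With 1 array per genotype no test was possible. Every listed member is described, and other junction genes are named when, at or above the median signal of measured genes, they were 2-fold apart or among the 4 largest differences of their list, except 1 gene that is not reported here. Members and lists were chosen with earlier results of these data known. Steps were tested on simulated data that did not carry the lower dim signals of the knockout array, so the dim differences were not checked there. Alternatives numbered 9. Normexp (limma 3.58.1, offset 50) used median pixel signals, since the files used here carry no mean signal. Its offset is added to every signal and draws the differences of dim probes toward 0. Loess used a span of 0.3 (statsmodels 0.14.6). Values from median pixels of single spots were added after the data were seen. The number of arrays limits the precision.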

Additional observations from a re-analysis of the deposited data

How the results depend on the processing

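Scaling by array medians gave medians of 1.04 for all measured members, 1.11 for adherens, 0.88 for tight junction, 0.79 for desmosome and 1.09 for polarity genes, and 1.04 for other junction genes, with 17 members higher and 0 lower, 33 and 0 of the other junction genes, and 8765 and 100 of all genes. Under that scaling 13 of 31 members changed sign, against 8 under quantile normalization, 5 with the percentile over measured probes, 4 after loess and 3 after normexp. Quantile normalization, loess and normexp each left 0 members at least 2-fold lower, and no filter on background gave 9. The brighter probes alone covered 24 members and also gave 0. They hold no probe of Cldn1, Cldn4 or Dsc2, so that count could not include these genes. Counts of all genes higher and lower were 146 and 834 as reported, 774 and 233 (quantile), 266 and 365 (loess), 72 and 100 (normexp), 80 and 46 (brighter probes) and 293 and 4465 (no filter). Of the other junction genes 5 were higher under quantile normalization, 1 after loess and 1 without a filter. Their lower count was 0 under quantile, loess, normexp and the brighter probes, 5 with the percentile over measured probes and 17 without a filter. Cdh23 is too dim to be among the brighter probes, so that setting could not count it. Without a filter the medians were -1.13 for desmosome, -0.45 for tight junction and -0.28 for other junction genes. The brighter probes gave 0.12 for desmosome and 0.14 for other junction genes, and quantile normalization 0.054 for tight junction genes. Cldn1 turned to 0.12 under quantile normalization. The cause of these shifts was not tested, apart from the fewer or more genes that a filter leaves. Taking the brightest probe or keeping outlier spots moved no count by over 1.5 times. No paired analysis was possible because each genotype had 1 array, and no array could be left out.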
